A study of Homo sapiens with 6 samples.

Results

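Metallothioneins are small cysteine-rich proteins that hold zinc and copper in the cell, and the 8 genes described here are the metallothioneins MT1E, MT1F, MT1G, MT1M, MT1X and MT2A, the zinc exporter SLC30A1 and the zinc-sensing transcription factor MTF1. They were taken by symbol from the deposited count table, where each had 1 of the 25445 rows. The cells were MHCC-97H, a human liver cancer cell line. In the 6j group, 3 libraries came from cells treated with 10 μM of compound 6j, a sophoridine derivative, for 16 h, and the 3 non-treated libraries came from cells given solvent for the same 16 h. No genotype or further agent is named for either group. Nothing in the sample descriptions tells whether the 3 libraries of a group came from separate cultures, so the p-values measure the spread between these libraries, which may be technical. In bulk RNA, fewer expressing cells and less RNA per cell cannot be told apart.

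Free zinc is bound by MTF1, which then enters the nucleus and turns on genes through short DNA motifs called metal response elements. Metallothioneins and SLC30A1, which moves zinc out through the plasma membrane, are the classical targets of this factor, so their RNAs are used as a readout of cytosolic zinc. In liver, metallothionein genes also respond to copper, cadmium, glucocorticoids, oxidants and the acute-phase cytokines. MT2A is commonly the most abundant member in human cells, and the MT1 genes are its tandem copies.

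Totals per library ran from 31533403 to 38018349 counts. The label of a liver cell was set against hepatocyte markers, of which 10 of 13 did not have enough counts to be tested, among them albumin (ALB), which was at 0 CPM (a count scaled to the size of its library) in 5 libraries and 0.21 CPM in 6j replicate 2, and TTR and FOXA2, which were at 0 in all 6. The hepatocyte factor HNF4A was at 0.55 to 1.40 CPM, while the epithelial keratin KRT8 was at 516, 653 and 646 CPM in non-treated and at 385, 369 and 457 CPM in 6j treated cells. KRT8 was 0.667-fold in 6j (adjusted p = 0.0211, edgeR quasi-likelihood test with Benjamini-Hochberg adjustment). It fell just short of the fold change above 1.5 that a call needed, and was not called. KRT18 had a log2 fold change of -0.32 (adjusted p = 0.0661, the same edgeR test). These cells thus lacked the defining hepatocyte markers at this depth and kept keratins. The summed level of the hepatocyte list was 905 to 1110 CPM in non-treated and 706 to 825 CPM in 6j libraries, nearly all of it keratin. Of 8 markers of other cell types, the leukocyte genes PTPRC and CD3E were at 0 throughout, and none of the 4 tested was called (3.60% of all rows were). The summed level of the list was 264 to 325 CPM in non-treated and 260 to 320 CPM in 6j libraries. Most of it was the collagen gene COL1A1, named after its values were seen. COL1A1 was at 275.5, 240.9 and 215.1 CPM in non-treated and at 272.2, 216.5 and 203.0 CPM in 6j libraries. CD68, likewise named, was at 39.8 to 70.5 CPM in non-treated and at 41.8 to 52.1 CPM in 6j libraries. ACTA2, with the smallest adjusted p of the 4 tested, had a log2 fold change of -0.50 (adjusted p = 0.206, edgeR), followed by PECAM1 at -0.53 (adjusted p = 0.611, edgeR). The part of these markers in the results below was not tested.

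The 6 metallothionein genes lie on chromosome 16 between 56608199 and 56684196 (GRCh38, GENCODE 29), with MT1G on the minus strand and the other 5 on the plus strand. SLC30A1 (211571568 to 211578742) and MTF1 (37809567 to 37859620) are both on the minus strand of chromosome 1. Annotated transcripts can differ in coding length, so for each metallothionein a transcript of the length most common among the 6 genes was taken. The shared length thus follows from the choice. Each sequence taken had 186 bases, that is 61 codons before the stop, of which 20 (32.8%) coded for cysteine, the residue that holds the metal. The coding sequences below are those of the 4 genes with counts and of MT1G, which had none although it is the closest to MT2A. They are shown because reads from the coding part can be told apart only at the bases in capitals, which mark where each differs from MT2A.
MT2A: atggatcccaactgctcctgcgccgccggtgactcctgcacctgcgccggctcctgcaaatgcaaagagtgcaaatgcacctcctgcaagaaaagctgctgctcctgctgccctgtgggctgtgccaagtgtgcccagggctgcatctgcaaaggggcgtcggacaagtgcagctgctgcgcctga
MT1X: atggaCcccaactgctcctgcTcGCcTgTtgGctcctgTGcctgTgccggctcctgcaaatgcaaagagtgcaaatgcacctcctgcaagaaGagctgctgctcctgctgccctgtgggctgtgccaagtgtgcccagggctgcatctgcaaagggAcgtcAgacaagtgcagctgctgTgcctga
MT1E: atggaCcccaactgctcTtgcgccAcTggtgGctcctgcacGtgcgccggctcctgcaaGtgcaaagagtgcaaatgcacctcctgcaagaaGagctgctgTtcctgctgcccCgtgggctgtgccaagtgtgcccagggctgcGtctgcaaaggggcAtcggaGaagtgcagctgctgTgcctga
MT1F: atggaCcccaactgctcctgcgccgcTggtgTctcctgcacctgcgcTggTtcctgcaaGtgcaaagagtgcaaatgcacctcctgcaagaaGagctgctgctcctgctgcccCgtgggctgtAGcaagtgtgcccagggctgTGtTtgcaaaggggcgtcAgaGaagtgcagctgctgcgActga
MT1G: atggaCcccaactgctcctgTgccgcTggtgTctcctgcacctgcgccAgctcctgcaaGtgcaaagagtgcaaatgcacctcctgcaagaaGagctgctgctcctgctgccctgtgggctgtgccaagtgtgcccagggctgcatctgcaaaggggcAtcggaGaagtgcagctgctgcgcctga
MT1G differed from MT2A at 9 bases (95.2% identity), MT1X and MT1E each at 14 (92.5%), MT1F at 16 (91.4%) and MT1M at 19 (89.8%). Over all pairs, identity ran from 88.7% for MT1X and MT1F to 95.2% for MT2A and MT1G. Whole transcripts add the untranslated ends to the coding sequences, and all annotated transcripts of a gene were pooled. For MT2A and MT1X the pooled exons covered the introns as well. The shares below are thus not those of the mature RNA alone. Of all stretches of 50 bases in a gene's transcripts, the share found in no other gene was 97.0% for MT2A, 81.7% for MT1X, 92.9% for MT1E, 98.8% for MT1F, 83.5% for MT1G and 90.1% for MT1M. At 100 bases every metallothionein was fully distinct but MT1X, at 88.7%, which shared the rest with the overlapping gene AC026461.1. How reads that fit several copies were counted is not given in the sources used here, so the split between the copies is uncertain and their sum was tested as well.

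The proximal promoters are printed because the metal response element is the sequence through which MTF1 acts. RefSeq (GRCh38.p14) gave the 250 bases before the transcription start for MT2A, MT1X, SLC30A1 and MTF1, and the entries for MT1E, MT1F, MT1G and MT1M were missing. The core searched for on both strands was TGCACNC or TGCGCNC, no match overlapped another, and matches are in capitals. Bases that an annotated exon covers are left out, so MT1X is cut to 204 bases, and for MT2A, whose window lies inside the first exon of a longer transcript, only 5 short stretches are given.
MT2A, chr16:56608334-56608348, + strand: ccgcTGCACCCagcc
MT2A, chr16:56608412-56608441, + strand: gcccGTGTGCAgagccgggTGCGCCCggcc
MT2A, chr16:56608492-56608506, + strand: gggcGTGTGCAggca
MT2A, chr16:56608526-56608540, + strand: ctttTGCACTCgtcc
MT2A, chr16:56608572-56608583, + strand: gcgcTGCACTCc
MT1X, chr16:56682220-56682423, + strand: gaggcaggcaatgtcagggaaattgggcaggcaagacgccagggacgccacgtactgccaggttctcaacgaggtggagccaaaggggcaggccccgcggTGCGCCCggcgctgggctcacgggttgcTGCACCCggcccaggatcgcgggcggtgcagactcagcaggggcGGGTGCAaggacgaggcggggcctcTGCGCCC
SLC30A1, chr1:211579162-211579411, - strand: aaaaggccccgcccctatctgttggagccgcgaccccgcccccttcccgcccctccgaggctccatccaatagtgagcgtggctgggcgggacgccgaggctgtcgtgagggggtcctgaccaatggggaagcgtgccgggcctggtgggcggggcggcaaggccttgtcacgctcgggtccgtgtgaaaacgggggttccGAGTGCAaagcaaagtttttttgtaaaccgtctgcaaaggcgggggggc
The MT2A window held 7 matches, the first of them beginning 246 and the last 8 bases before the start. The MT2A match that begins 139 bases before the start lies outside the printed stretches. MT1X held 4, beginning 150, 122, 78 and 53 bases before the start, SLC30A1 held 1 at 49 bases, and MTF1 held none. Among 35116 promoters of the same length, 24.8% held at least 1 match, 0.37% held at least 4 and 0.0313% held at least 7. A match is a description of letters and not of a bound site.

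**Figure D1:**
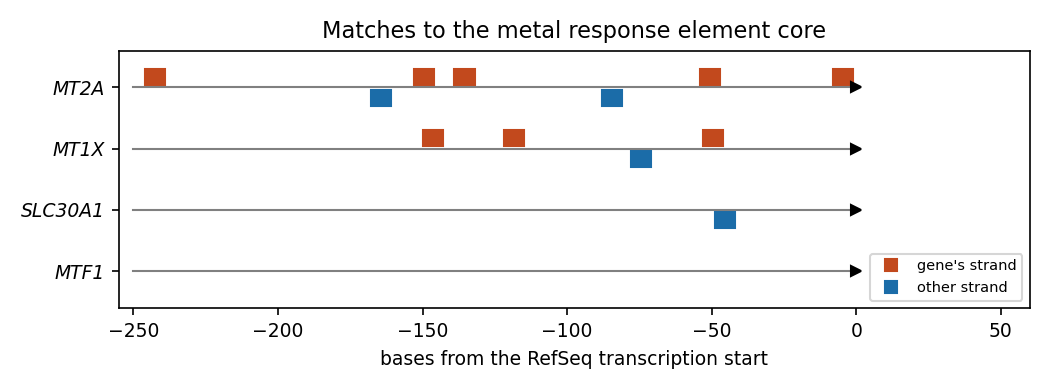
Position of each match to the metal response element core, in bases before the RefSeq transcription start (arrowhead), in 4 promoters, with boxes above the line for the gene's strand and below it for the other strand. MT2A has 7 boxes spread from 246 to 8 bases before the start, MT1X has 4 within the last 150 bases, SLC30A1 has 1 and MTF1 has none.

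The metallothioneins, SLC30A1 and MTF1 showed no change that passed the test after 16 h of 6j. Of the 8 members, 6 had enough counts to be tested, and none was called a DEG (differentially expressed gene: adjusted p under 0.05 and fold change above 1.5 in edgeR), where 3.60% of the 15957 tested rows were, which is 574 DEGs. With a replicate block, 1033 rows (6.47%) and again 0 members were called. None of the 6 reached an unadjusted p under 0.05 in edgeR, a level that 26.2% of all tested rows reached, and none did in DESeq2 or with the block. Adjusted p-values of the members ran from 0.502 to 0.965 in edgeR, so 0 of 6 were under 0.05 at any fold, as 9.16% of all tested rows were. Their log2 fold changes were above 0 for 2 and below 0 for 4, with a median of -0.04, beside a median of 0.0046 over all tested rows.

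MT2A, the main metallothionein of these cells, was at 161, 186 and 134 CPM in the non-treated libraries and at 136, 163 and 140 CPM in the 6j libraries. The 3 values after 6j all fell inside the range of the non-treated libraries. The means were 160 ± 26.0 and 147 ± 14.7 CPM (SD, n = 3 each). MT2A had a log2 fold change of -0.13 (SE 0.13), with a 95% interval of the fold from 0.749 to 1.11 and an adjusted p of 0.566 by edgeR's quasi-likelihood test. By replicate number the log2 change in CPM was -0.24, -0.19 and 0.06, so the direction was not shared by all 3 pairs.

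MT1X, an MT1 copy at the far end of the cluster, was at 13.5, 16.2 and 8.99 CPM in non-treated and at 10.3, 17.2 and 10.5 CPM in 6j treated cells. Its lowest value was in non-treated replicate 3 and its highest in 6j replicate 2, and the groups overlapped. The means were 12.9 ± 3.66 and 12.7 ± 3.90 CPM (SD, n = 3 each), and the log2 fold change was -0.03 (SE 0.27, adjusted p = 0.965, edgeR). The 95% interval of the fold, 0.643 to 1.496, went below a 1.5-fold fall.

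MT1E was at 9.05, 12.1 and 11.4 CPM in non-treated and at 8.51, 11.2 and 8.85 CPM in 6j treated cells. All 3 pairs of the same replicate number were lower after 6j, by log2 changes of -0.09, -0.11 and -0.37, but the groups overlapped. MT1E had a log2 fold change of -0.19 (SE 0.17, adjusted p = 0.547, edgeR), with an interval of the fold from 0.671 to 1.15.

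MT1F had the fewest reads of the detected copies, 52 to 104 counts a library. It was at 1.46, 3.14 and 1.49 CPM in non-treated and at 2.71, 1.56 and 1.57 CPM in 6j treated cells. In each group 1 library stood above the other two, replicate 2 of the non-treated and replicate 1 of the 6j libraries, and by replicate number the log2 change was 0.89, -1.01 and 0.07. Its log2 fold change was -0.06 (SE 0.39, adjusted p = 0.9501, edgeR), and the interval of the fold, 0.523 to 1.77, took in changes of 1.5-fold in both directions.

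MT1G and MT1M had 0 counts in every library. With 3 counts taken as the floor that a count of 0 allows, each was at most 0.0781 to 0.0952 CPM, a limit for counting error only. Among 15 other metallothionein genes and pseudogenes, 6 had a row in the table, 4 of those were at 0 in all libraries and none could be tested. Their summed level was at most 0.372 CPM in a library. Reads of the family thus came almost wholly from MT2A, MT1X, MT1E and MT1F in both groups.

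Zinc export and sensing gave the tightest values. SLC30A1, which lowers cytosolic zinc, was at 158, 156 and 165 CPM in non-treated and at 167, 174 and 167 CPM in 6j treated cells. Every 6j library was above every non-treated one, which made it the only member whose groups did not overlap. Among all tested rows 31.7% had groups that did not overlap. The means were 160 ± 4.64 and 169 ± 4.25 CPM (SD, n = 3 each), and SLC30A1 had a log2 fold change of 0.09 (SE 0.07, adjusted p = 0.502, edgeR). The 95% interval of its fold ran from 0.949 to 1.19.

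MTF1 was at 36.9, 35.3 and 33.7 CPM in non-treated and at 35.2, 37.5 and 33.9 CPM in 6j treated cells. The groups overlapped almost fully. MTF1 had a log2 fold change of 0.01 (SE 0.09, adjusted p = 0.960, edgeR), with an interval of the fold from 0.875 to 1.16. For MT2A, MT1E, SLC30A1 and MTF1, 4 of the 6 tested members, the whole interval lay within 1.5-fold either way.

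**Figure D2:**
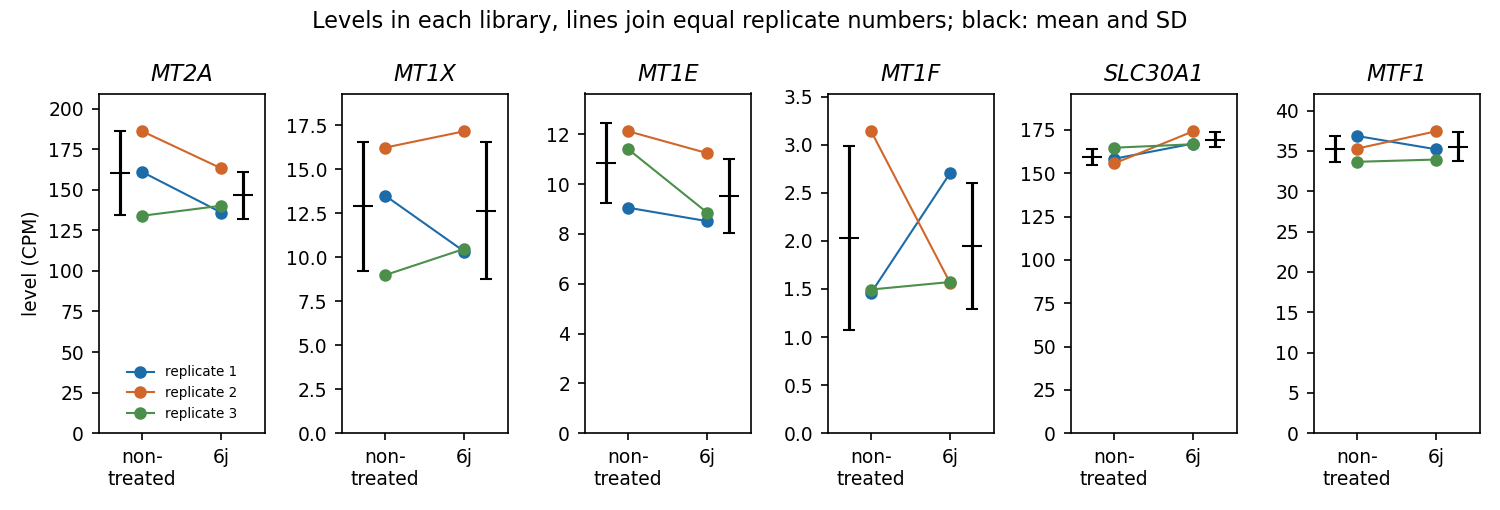
Level in CPM (y axis, from 0) of the 6 detected members in each library, with lines joining libraries of the same replicate number and black marks for the mean and SD of 3 libraries. SLC30A1 is higher after 6j along all 3 lines, at 156 to 165 against 167 to 174 CPM, while the MT1F lines cross.

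**Figure D3:**
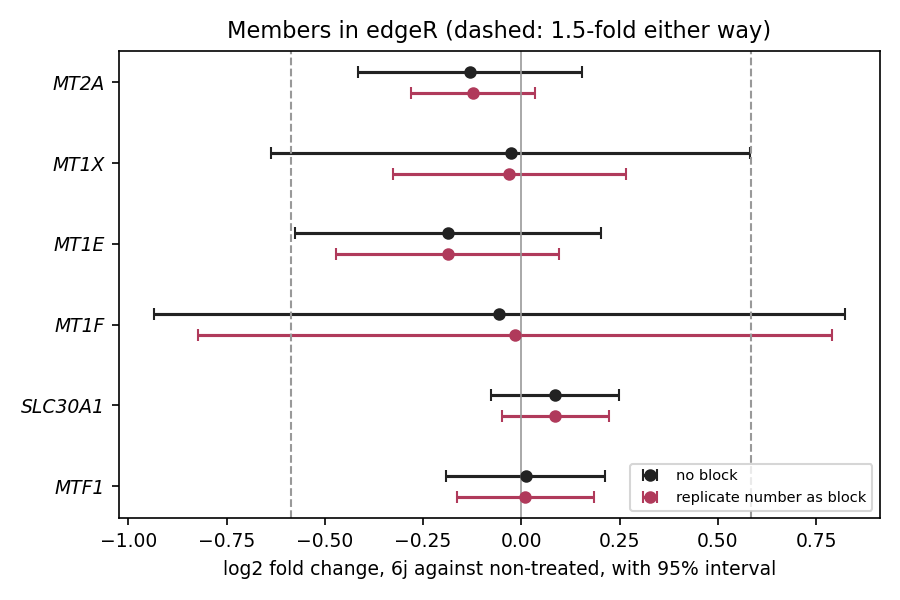
Log2 fold change of 6j against non-treated cells (x axis) with its 95% interval for the 6 tested members, in edgeR fits that leave out (black) or include (red) the replicate number, and dashed lines at 1.5-fold. All 12 intervals include 0, and the MT1F intervals are the widest.

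Per length of exon, the members kept one order in both groups. In RPKM (CPM divided by the length of the merged exons in kilobases), non-treated and 6j means were 124 ± 20.1 and 113 ± 11.3 for MT2A, 29.1 ± 0.848 and 30.9 ± 0.777 for SLC30A1 and 10.3 ± 1.53 and 9.06 ± 1.42 for MT1E (SD, n = 3 each). They were 7.28 ± 2.07 and 7.14 ± 2.20 for MT1X, 4.40 ± 0.199 and 4.43 ± 0.221 for MTF1, and 1.08 ± 0.509 and 1.03 ± 0.349 for MT1F. MT1E and MT1X, neighbours in this order, overlapped within the spread over libraries, with MT1E at 8.09 to 11.5 and MT1X at 5.07 to 9.68 RPKM. No other neighbours in the order overlapped in any library. The merged exons take in every annotated transcript of a gene, so their length is not that of the mature RNA. For MT2A (1299 bases) and MT1X (1773 bases) they covered the whole gene, introns included, while MT1E was divided by 1052 bases. The order depends on these lengths, and in mean CPM MT1X was above MT1E in both groups.

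The summed metallothionein level does not depend on how reads were split between the member copies. It would still miss any reads that were dropped or given to genes outside the members. The sum was 185, 218 and 156 CPM in non-treated and 158, 193 and 161 CPM in 6j libraries. The highest library was non-treated replicate 2, and the groups overlapped. The log2 difference was -0.12 (0.921-fold, p = 0.7, two-sided exact permutation test, n = 3 each, where the smallest p possible is 0.1). Without non-treated replicate 2 it was 0.00017 (p = 0.8 in the exact permutation test), and without non-treated replicate 3 it was -0.24 (p = 0.4 in that exact test). MT2A held 87.0%, 85.5% and 86.0% of metallothionein counts in non-treated and 86.3%, 84.5% and 87.0% in 6j libraries, a difference of -0.22 percentage points (p = 1.0, exact permutation test, n = 3 each).

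Whether the RNAs of the exporter and of the storage proteins moved by different amounts was asked with the log2 level of SLC30A1 minus that of the summed metallothioneins. Both levels were in CPM, and the measure is called the difference below. This log2 measure was -0.23, -0.48 and 0.08 in non-treated and 0.08, -0.15 and 0.05 in 6j libraries. The difference of 0.21 was about the size of the spread within groups (pooled SD 0.22) and gave p = 0.3 in the two-sided exact permutation test (n = 3 each, smallest p possible 0.1). Without non-treated replicate 2 the difference was 0.068 (p = 0.6, exact permutation test), and without non-treated replicate 3 it was 0.35 (p = 0.2, exact permutation test). With 1 library left out, 0.2 is the smallest p possible, and without non-treated replicate 3 the groups did not overlap. By replicate number the difference was 0.31, 0.33 and -0.03 (p = 0.5 in an exact sign-flip test, n = 3 pairs, smallest p possible 0.25).

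Across the 6 libraries, MT2A and MT1X moved most closely together, with a Pearson r of log2 CPM of 0.91, and of 0.96 once group means were taken out. MT1X and MTF1 had r = 0.80, MT2A and MTF1 0.58, and SLC30A1 and MT2A -0.46. These are descriptions over 6 libraries of 1 cell line. Replicate 2 held the highest MT2A, MT1X and MT1E value of both groups. The 5 genes outside the members whose log2 CPM was most like the mean of the 4 tested metallothioneins, among 13359 rows with a gene identifier, were TRIM5 (r = 0.994), VSIR (0.991), SOBP (0.984), C1R (0.982) and ARHGAP30 (0.982). The metallothioneins were less like their own mean, with r = 0.88 for MT2A (rank 137), 0.80 for MT1X (rank 408), 0.70 for MT1F (rank 873) and 0.59 for MT1E (rank 1527). TRIM5 was at 20.7, 36.7 and 16.3 CPM in non-treated and at 21.2, 24.8 and 16.3 CPM in 6j libraries. ARHGAP30 was low, at 0.14 to 0.70 CPM over the 6 libraries. None of the 5 was called, and all 5 were highest in non-treated replicate 2.

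Other zinc transporters were measured for comparison, of which 2 importers were called. Of 10 other exporters of the SLC30 family and TMEM163, 6 were tested and 0 called, where 3.60% of all rows were, with log2 fold changes above 0 for 5 and a median of 0.21. SLC30A7, which loads zinc into the Golgi, was at 41.8, 38.2 and 42.4 CPM in non-treated and at 52.8, 56.1 and 58.0 CPM in 6j treated cells (log2 fold change 0.45, adjusted p = 0.0171, edgeR), a rise below the 1.5-fold threshold. Next by adjusted p, SLC30A6 had a log2 fold change of 0.23 (adjusted p = 0.1002, edgeR). An unadjusted p under 0.05 was reached by 4 of the 6 in edgeR, where 26.2% of all tested rows reached it, and by 3 in DESeq2, where 19.2% of 22065 rows did.

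Importers of the SLC39 family bring zinc into the cytosol, and of 14 listed 11 were tested, 1 called higher (2.48% of all rows were) and 1 called lower (1.12% of all rows were). SLC39A14, an importer of zinc, iron and manganese, was at 170, 184 and 203 CPM in non-treated and at 251, 298 and 302 CPM in 6j treated cells. It rose 1.53-fold (log2 fold change 0.61, SE 0.10, adjusted p = 0.0113, edgeR), and the groups did not overlap. The call was lost without non-treated replicate 1 (adjusted p = 0.0680, edgeR), without 6j replicate 2 (adjusted p = 0.0645, edgeR) and without 6j replicate 3, where its log2 fold change was 0.56. SLC39A11 was at 12.2, 9.64 and 10.2 CPM in non-treated and at 7.86, 6.74 and 6.67 CPM in 6j treated cells, a fall to 0.664-fold (adjusted p = 0.0493, edgeR). Its call was lost in all 6 fits that left out 1 library, with adjusted p from 0.0515 to 0.204 in edgeR. SLC39A1, a plasma membrane importer, was 1.44-fold higher after 6j (adjusted p = 0.0119, edgeR), under the fold threshold. The median log2 fold change of the 11 importers was 0.10.

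**Figure D4:**
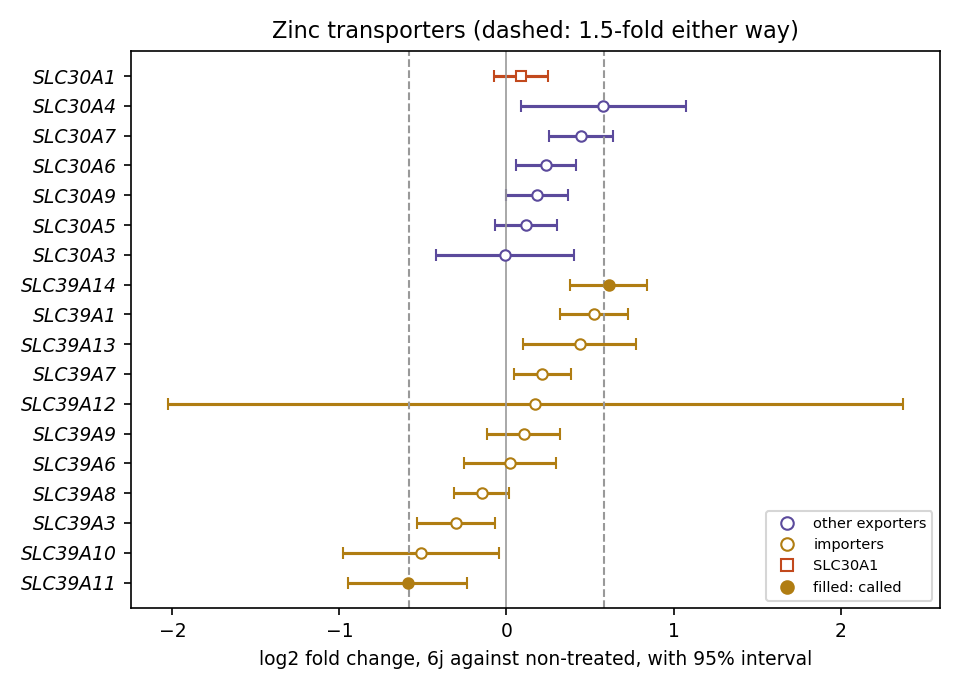
Log2 fold change of 6j against non-treated cells (x axis) with 95% intervals from edgeR for SLC30A1 (square), the 6 other tested exporters and the 11 tested importers, filled where called, and dashed lines at 1.5-fold. SLC30A1 sits at 0.09, and the called importers SLC39A14 and SLC39A11 sit at 0.61 and -0.59.

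Metallothioneins bind copper as well, and of 13 copper-handling genes 12 were tested. Of these, 1 was called higher (2.48% of all rows were) and 0 were called lower (1.12% of all rows were). Their log2 fold changes were below 0 for 9, with a median of -0.29. SLC31A1, the high-affinity copper importer, was at 71.7, 70.9 and 76.9 CPM in non-treated and at 98.2, 137 and 130 CPM in 6j treated cells. It rose 1.66-fold (log2 fold change 0.73, SE 0.12, adjusted p = 0.0113, edgeR). Its call was lost without non-treated replicate 1 (adjusted p = 0.0651, edgeR) and without 6j replicate 2 (adjusted p = 0.0614, edgeR). SOD1, the copper and zinc superoxide dismutase, had a log2 fold change of -0.52 (adjusted p = 0.0221, edgeR), under the fold threshold.

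Other inputs to metallothionein genes were read from their own target genes. Of 10 genes that glucocorticoids induce, 8 were tested, 1 was called higher (2.48% of all rows) and 0 were called lower (1.12% of all rows), with log2 fold changes above 0 for 5, below 0 for 3 and a median of 0.13. TSC22D3 (GILZ) was at 75.8, 81.1 and 78.6 CPM in non-treated and at 165, 193 and 184 CPM in 6j treated cells, a rise of 2.30-fold (adjusted p = 0.000569, edgeR) that stayed called in all 6 fits without 1 library. DUSP1, a phosphatase of MAP kinases, had a log2 fold change of 0.52 (adjusted p = 0.0359, edgeR), under the fold threshold. FKBP5, SGK1 and KLF9, named after their values were seen, were on the other side. SGK1 was at 510, 657 and 703 CPM in non-treated and at 423, 454 and 500 CPM in 6j treated cells (log2 fold change -0.44, adjusted p = 0.0600, edgeR). FKBP5 had a log2 fold change of -0.42 (adjusted p = 0.0795, edgeR) and KLF9 of -0.12 (adjusted p = 0.467, edgeR). Under the block, SGK1 had an adjusted p of 0.000499 and FKBP5 of 0.00387 in edgeR, both still under the fold threshold. ERRFI1, likewise named after its values were seen, had a log2 fold change of 1.38 (adjusted p = 0.246, edgeR) and was called only with the replicate block (1.25, adjusted p = 0.0128, edgeR). Of 15 acute-phase genes 14 were too low to test, and SOCS3, the 1 tested, had a log2 fold change of -0.01 (adjusted p = 0.979, edgeR).

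Of 10 stress genes that metals induce, all 10 were tested and 0 were called (3.60% of all rows were), 5 with log2 fold changes above 0 and 5 below, and a median of 0.08. The cochaperone BAG3 fell by 0.42 on the log2 scale (adjusted p = 0.0164, edgeR), under the fold threshold, and the heat shock gene HSPA1B, whose near-identical copy HSPA1A may share its reads, had a log2 fold change of -0.41 (adjusted p = 0.0971, edgeR). HMOX1 (heme oxygenase 1), a gene that metals and oxidants induce, was named after its values were seen. It was at 48.3, 80.0 and 16.1 CPM in non-treated and at 62.9, 148 and 27.0 CPM in 6j libraries. Libraries of the same number were alike in order, replicate 2 highest and replicate 3 lowest in both groups. Its log2 fold change was 0.72 (adjusted p = 0.687, edgeR), and it was called with the replicate block (0.67, adjusted p = 0.00135, edgeR).

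Genes around the cluster were described as its local background. Within 500 kb of it, 17 genes outside the members had a row. They include the other metallothioneins MT4, MT3, MT1A, MT1B and MT1H, none of which was tested. Of the 17, 11 were tested and 2 were called, 1 in each direction, where 3.60% of all rows were called. HERPUD1, a gene of ER-associated degradation 324 kb from the MT2A start, was at 76.3, 81.9 and 89.3 CPM in non-treated and at 163, 219 and 218 CPM in 6j treated cells (log2 fold change 1.28, adjusted p = 0.00173, edgeR). SLC12A3, a sodium chloride cotransporter 257 kb from that start, was at 115, 120 and 155 CPM in non-treated and at 53.5, 43.7 and 70.1 CPM in 6j treated cells (log2 fold change -1.22, adjusted p = 0.0119, edgeR). Both calls held in all 6 fits without 1 library. NUP93, a nuclear pore gene and the nearest tested neighbour, fell by 0.45 on the log2 scale (adjusted p = 0.0127, edgeR), under the fold threshold. GNAO1, NUDT21, OGFOD1, BBS2, NLRC5, CPNE2 and FAM192A had log2 fold changes from -0.21 to 0.31, and the smallest adjusted p of these in edgeR was 0.232 for BBS2.

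**Figure D5:**
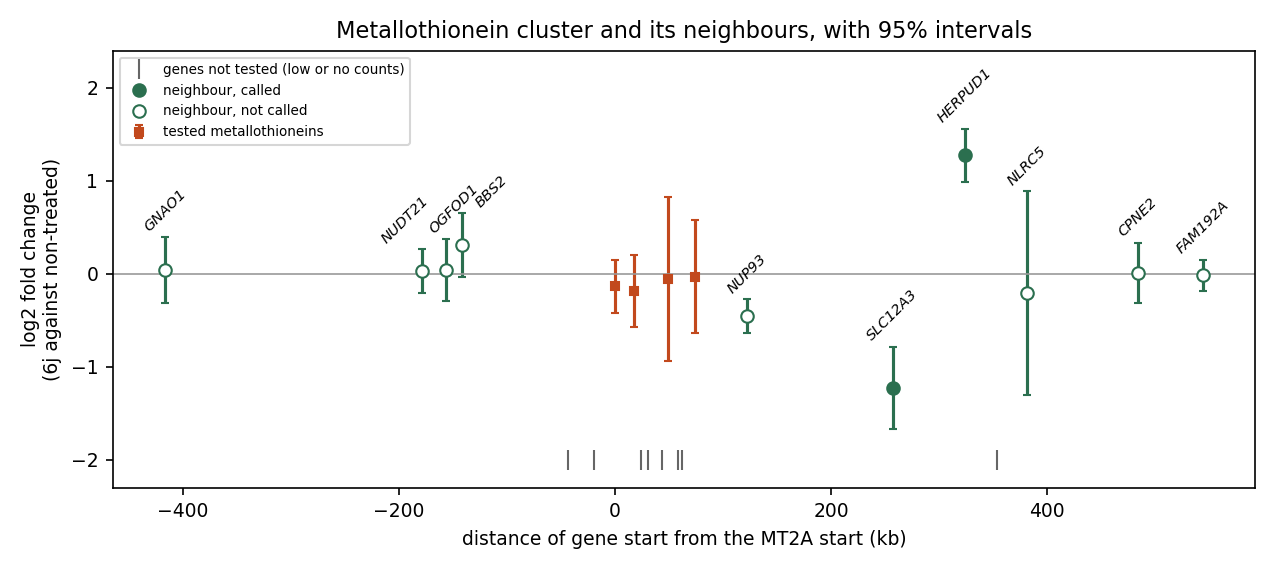
Log2 fold change (y axis) with 95% intervals from edgeR against the distance of each gene's start from the MT2A start in kb (x axis), for the 4 tested metallothioneins (squares) and 10 of the 11 tested neighbours (circles, filled where called), with ticks for genes not tested. The metallothioneins lie between -0.19 and -0.03, and HERPUD1 at 1.28 and SLC12A3 at -1.22 lie beyond the cluster on one side.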

How the data were processed

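Poly(A) RNA libraries of MHCC-97H cells, 3 treated with 6j and 3 non-treated, were analysed from 1 table of read counts per gene that the authors deposited. The submitters' processing notes name HISAT2, StringTie and GRCh38, and versions, the counting program, read length, strand and the handling of multiply mapped reads are not given in the sources used here. The counts are raw, and all columns matched a sample. Of 25445 rows, 19974 carried Ensembl identifiers, all found in GENCODE 29, and 5471 were new genes of the authors.

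Rows were kept by filterByExpr (minimum count 10, minimum total 15), scaled by TMM and tested with edgeR 4.0.16 (quasi-likelihood, robust, R 4.3.3) over the whole table, with Benjamini-Hochberg adjustment and calls at adjusted p under 0.05 and fold change above 1.5. The study used DESeq2, and DESeq2 1.42.0 was run as an alternative. The fits were tested on simulated data. CPM values use TMM library sizes, and log2 CPM values for likeness add a prior count of 2. Sums and differences per library used exact permutation tests (scipy 1.17.1). Alternatives were other scalings, no filter, DESeq2, a replicate block and fits without 1 library.

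Replicate numbers come from the sample titles. Deviations from group means of same-numbered libraries correlated at 0.171, 0.18 and 0.312 over 15957 rows, and those of unlike numbers at -0.231 to 0.0795. The numbers were therefore taken as pairs in the replicate block and in the changes by replicate number. The main edgeR fit has no block, and edgeR values are from it unless the block is named. The SE of every tested member was smaller with the block, for MT2A 0.072 against 0.13. The block value is given where it changes a call. No pair of libraries was a duplicate. The members and gene lists were chosen with earlier results of these data known. Named genes are the members, the called and the 2 genes with the smallest adjusted p of each list, the tested genes within 500 kb of the cluster (1 is not reported here) and the 5 genes most like the metallothionein mean. The depth of 31533403 to 38018349 counts limits the genes with few reads, and floors cover counting error only.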

Additional observations from a re-analysis of the deposited data

How the results depend on the processing

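Under the 11 alternatives of edgeR and DESeq2, including the replicate block, 0 members were called, and adjusted p-values ran from 0.24 to 0.995. The number of DEGs was 1033 with the replicate block, 773 with DESeq2, 599 without a filter, 575 with DESeq2 size factors and 576 with upper quartile scaling, and 186 to 772 when 1 library was left out (186 without non-treated replicate 1, 379 without non-treated replicate 3 and 193 without 6j replicate 2). MT1E, MT2A and SLC30A1 kept their direction under all 11. With 1 library left out, the log2 fold change ran from -0.37 to 0.40 for MT1F, from -0.31 to 0.17 for MT1X and from -0.028 to 0.044 for MTF1. For the summed metallothionein level it ran from -0.24 to 0.00017, and for SLC30A1 minus metallothioneins from 0.068 to 0.35. In pairs by replicate number (replicate block), the sum differed by -0.12 (p = 0.5, exact sign-flip test). The block changed no other call than those given above. The 52 to 104 counts of MT1F and the 0 counts of MT1G and MT1M are the limits of depth, and copies that share sequence limit the split between genes.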
